A study of Mus musculus with 70 samples.

Results

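Expression of 10 genes that define mouse pluripotent cells was examined across 22 brain regions and 2 mouse embryonic stem cell (mESC) lines. The genes were chosen by name, with earlier results of these data known: *Pou5f1*, *Nanog*, *Sox2*, *Klf4*, *Esrrb*, *Zfp42*, *Dppa3*, *Dppa5a*, *Tdgf1* and *Lin28a*. These are 10 of the 34677 genes with a TPM value (a level scaled for transcript length and to the same total in every library). The questions were how far the mESC clones differ in them, and which of them persist in brain.

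RNA sequencing of 70 libraries covered 57 from adult brain at P56, 9 from embryonic brain at E14.5 and 4 from mESCs. The labels give C57BL/6 for all samples and the study's methods C57BL/6NTac for the mice, with no engineered allele or treatment named, and the adult mice were males. The adult hypothalamus was sampled as the arcuate hypothalamic nucleus (ARH), dorsomedial nucleus of the hypothalamus (DMH), lateral hypothalamic area (LHA), paraventricular hypothalamic nucleus (PVH) and ventromedial hypothalamic nucleus (VMH). Hindbrain nuclei were the dorsal-vagal complex (DVC), nucleus of the solitary tract (NTS) and parabrachial nucleus (PB), and cortical regions were the anterior cingulate area (ACA), frontal pole cortex (FRP) and entorhinal area (ENT). Cerebellar regions were central lobule II (CENT2), culmen lobules IV-V (CUL4-5), the uvula (UVU), the flocculus (FL) and the cerebellar nuclei (CBN), and the nucleus accumbens (ACB) and ventral tegmental area (VTA) completed the 18 adult regions. The 4 embryonic regions were forebrain (F), midbrain (M), hindbrain (H) and terminal and peduncular hypothalamus (THy/PHy). Each region had 2 to 4 libraries, made from frozen punches pooled over several animals apart from 1 ACB library, except that F had 1 library and so no spread. The mESC clones B6-1 and B6-2 were grown on feeder fibroblasts with LIF, then passaged without feeders in LIF with inhibitors of GSK3 and MEK, and each had 2 libraries from separately plated cells. Replicate spread is therefore between pools of tissue or platings of a clone, not between animals or derivations.

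A library held between 9074581 and 22229582 estimated counts, with 12985081 to 18501667 in mESCs. Adult, embryonic and mESC samples were collected in batches of their own, and RNA of mESCs was extracted with another kit than that of brain, so these cannot be told apart from stage. Both clones came from 1 batch. The first VTA library stood apart, with 39.6% of its TPM on mitochondrial genes against a median of 7.49%. Markers of feeder fibroblasts summed to 25.1–46.4 TPM over 10 genes in the mESC libraries, with none of the 10 at 0 in all of them, against 245–1205 TPM in embryonic and 615–2455 TPM in adult brain. *Thy1*, 1 of those markers, is also made by neurons and reached 1847 TPM in VTA. In bulk tissue, fewer cells that express a gene and less RNA per cell cannot be told apart.

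As background, the transcription factors OCT4 (*Pou5f1*), SOX2 and NANOG form the core circuit of pluripotent cells, and OCT4 and SOX2 bind DNA side by side at a joint octamer and SOX motif. KLF4, ESRRB and ZFP42 (REX1) belong to the naive state that LIF and the inhibitors of GSK3 and MEK maintain, and DPPA3 and DPPA5A mark early embryos and germ cells as well as mESCs. The remaining members are TDGF1 (CRIPTO), a cell surface co-receptor of NODAL, and LIN28A, an RNA-binding protein that blocks maturation of let-7 microRNAs. SOX2 is also a factor of neural stem cells and glia, KLF4 of endothelium and ESRRB of some neurons, so they are known outside pluripotency.

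In GRCm38 coordinates, the members lie on 7 chromosomes: *Sox2* at chr3:34650405-34652461, *Lin28a* at chr4:134003330-134018841, *Klf4* at chr4:55527143-55532466, *Dppa3* at chr6:122626410-122630272, *Nanog* at chr6:122707489-122714633, *Zfp42* at chr8:43295063-43306980, *Dppa5a* at chr9:78367052-78368177, *Tdgf1* at chr9:110939603-110946158, *Esrrb* at chr12:86361117-86521628 and *Pou5f1* at chr17:35506018-35510772. *Dppa3* ends 77.2 kb before *Nanog* starts. Some of their sequence recurs elsewhere, which bears on low counts: 57.2% of the 31-base words of *Dppa5a* occur in transcripts of other genes such as *Dppa5b* and *Pigp*, 31.8% of those of *Dppa3-201* in *Dppa3-ps* and others, 17.4% of those of *Tdgf1-201* in *Tdgf1-ps1*, *Tdgf1-ps2* and *Gm13455*, and 8.26% of those of *Pou5f1-201* in copies such as *Gm5712*. For *Nanog* the share was 10.8–12% by transcript, with *Nanog-ps1* and *Eapp* among the genes. It was 0.888% for *Sox2*, 2.03% for *Klf4-201*, 0.048% for *Esrrb-203* and 0 for *Zfp42* and *Lin28a*. *Sox2* lies inside *Sox2ot* on the same strand, and *Gm19553* runs antisense to *Pou5f1*.

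Promoter sequences of 8 members were available from RefSeq (GRCm38.p6), as 300 bases from 250 before to 50 after a start site, on the strand of the gene. They were searched on both strands for TTTGCAT (the octamer motif), ACAATG (the SOX motif) and TTTGCATNACAATG (both in a row). The octamer motif was found for *Sox2*, *Nanog* and *Zfp42* and in 4.63% of all 32851 promoters, and the SOX motif for *Lin28a*, *Nanog*, *Esrrb* and *Pou5f1* and in 12.6%. Both in a row occurred in 2 promoters of the 32851 (0.00609%), which were the overlapping windows of the *Nanog* start sites. In the window printed here for *Nanog*, that motif starts 75 bases before the start site (-75). *Zfp42* is shown for its octamer motif at -185. Capitals mark those motifs.
Nanog, chr6:122707239-122707538, plus strand: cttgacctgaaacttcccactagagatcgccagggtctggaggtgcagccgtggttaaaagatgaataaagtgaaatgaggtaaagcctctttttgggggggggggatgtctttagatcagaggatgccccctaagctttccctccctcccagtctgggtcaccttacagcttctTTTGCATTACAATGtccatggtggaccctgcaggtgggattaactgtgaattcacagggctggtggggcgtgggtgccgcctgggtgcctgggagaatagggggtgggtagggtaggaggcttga
Zfp42, chr8:43306960-43307259, minus strand: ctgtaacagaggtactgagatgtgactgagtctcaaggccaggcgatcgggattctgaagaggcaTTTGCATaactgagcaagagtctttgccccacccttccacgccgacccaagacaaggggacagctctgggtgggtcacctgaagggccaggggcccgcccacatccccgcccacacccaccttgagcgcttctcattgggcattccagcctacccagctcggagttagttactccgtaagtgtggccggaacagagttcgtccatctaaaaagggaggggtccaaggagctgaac

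Both start sites of *Esrrb* are shown because the estimated shares of its transcripts differed between tissues, which was not tested. The first window belongs to the start of *Esrrb-204* and the second to that of *Esrrb-203*. Capitals mark CACCC, found for 5 of the 8 members and in 57.5% of all promoters, and in the first window also the SOX motif, on the opposite strand at 32 bases after the start site.
Esrrb-204 start, chr12:86360867-86361166, plus strand: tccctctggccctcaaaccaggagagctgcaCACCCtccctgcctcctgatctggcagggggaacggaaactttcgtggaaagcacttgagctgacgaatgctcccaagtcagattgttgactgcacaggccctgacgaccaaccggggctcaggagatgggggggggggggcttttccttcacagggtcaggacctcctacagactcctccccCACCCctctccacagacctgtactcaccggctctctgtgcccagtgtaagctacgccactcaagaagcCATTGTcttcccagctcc
Esrrb-203 start, chr12:86421394-86421693, plus strand: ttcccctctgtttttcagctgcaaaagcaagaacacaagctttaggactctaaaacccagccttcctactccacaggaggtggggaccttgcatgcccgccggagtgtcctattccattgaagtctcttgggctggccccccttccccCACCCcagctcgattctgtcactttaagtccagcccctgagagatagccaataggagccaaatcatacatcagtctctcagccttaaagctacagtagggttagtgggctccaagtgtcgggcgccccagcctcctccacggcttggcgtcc
The letters AAGGTCA, the motif of ESRRB, were in none of the 8 members' windows and in 4.72% of all promoters, and GGGCGGG, bound by KLF factors, was found for 5 of the 8 and in 25.6%. A match describes letters only.

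All 10 members were transcribed in both mESC lines, over a range from 2354 TPM to 11.3 TPM in the mean of the lines. *Dppa5a* ranked 59th of the 34677 genes, *Pou5f1* 154th (1027 TPM), *Tdgf1* 225th (627 TPM) and *Nanog* 264th (559 TPM). *Sox2* (261 TPM) and *Esrrb* (213 TPM) followed at ranks 579 and 728. Levels of *Lin28a* (89.5 TPM), *Klf4* (88.0 TPM) and *Zfp42* (77.3 TPM) lay close together, and *Dppa3* was lowest at 11.3 TPM, rank 7966.

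**Figure D1:**
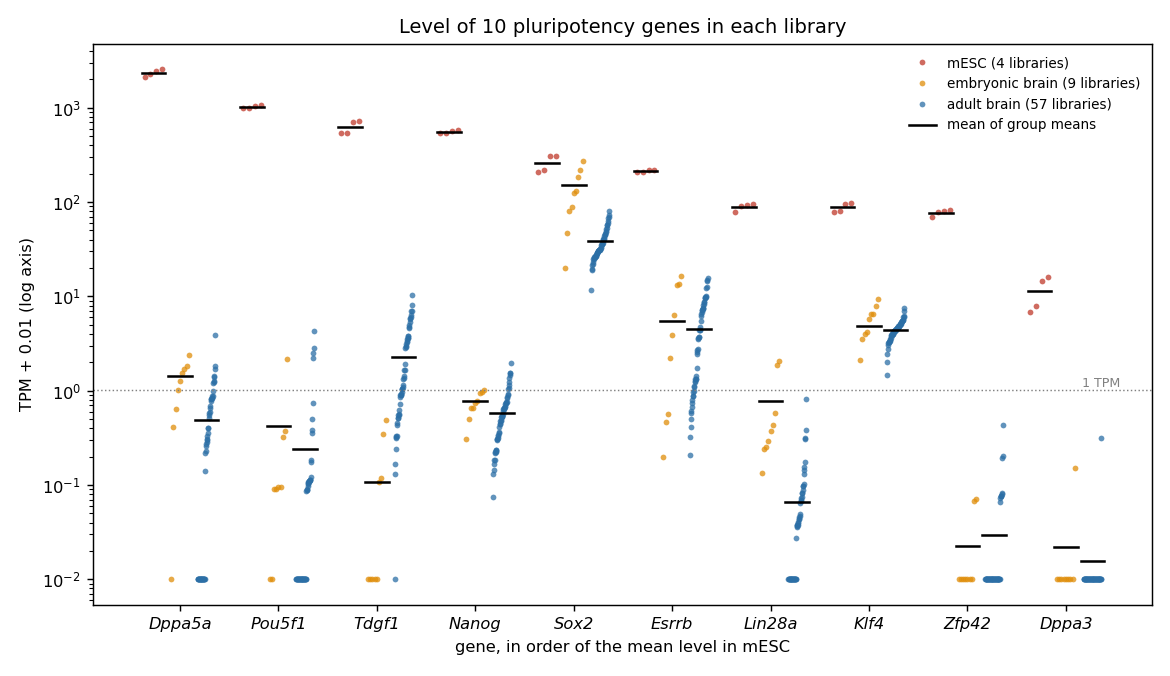
TPM of each of the 10 genes in each of 70 libraries, on a log axis after adding 0.01, with libraries at 0 drawn at the bottom. Points are libraries of mESC, embryonic brain and adult brain, and a bar is the mean of the group means. For 9 genes every mESC library lies above every brain library, and for *Sox2* the F library (272 TPM) and the first THy/PHy library (217 TPM) lie among the mESC libraries (207–310 TPM). The share of all genes placed like the 9 is not given.

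The core factors came first. *Pou5f1* was at 1081 and 1036 TPM in the B6-1 libraries and at 990 and 1003 TPM in the B6-2 libraries. *Nanog* was at 546 and 572 TPM in B6-1 and at 576 and 541 TPM in B6-2, so that its clones overlapped. *Sox2* was at 207 and 219 TPM in B6-1 and at 306 and 311 TPM in B6-2, a ratio of 1.44 between the clone means. Among the core factors *Sox2* thus had the widest gap between the clones.

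Of the naive factors, *Klf4* was at 78.2 and 81.0 TPM in B6-1 and at 95.2 and 97.4 TPM in B6-2. *Esrrb* was at 219 and 218 TPM in B6-1 and at 209 and 206 TPM in B6-2. *Zfp42* was at 79.9 and 82.4 TPM in B6-1 and at 78.0 and 68.8 TPM in B6-2. The clone means of these 3 genes lay within 1.21-fold of each other.

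*Dppa3*, also known as Stella, was at 14.4 and 16.04 TPM in B6-1 and at 6.75 and 7.92 TPM in B6-2, and its 2.07-fold difference between the clone means was the largest of the 10. *Dppa5a* was at 2464 and 2546 TPM in B6-1 and at 2298 and 2109 TPM in B6-2. *Tdgf1* was at 534 and 533 TPM in B6-1 and at 728 and 714 TPM in B6-2, a ratio of 1.35. *Lin28a* was at 91.0 and 78.5 TPM in B6-1 and at 92.4 and 95.9 TPM in B6-2. Apart from *Nanog*, the libraries of the clones did not overlap for any member, though with 2 libraries against 2 such separation says little. The share of all genes that separate in this way is not given, so it does not set the members apart.

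None of these differences passed the test across all genes. In edgeR's quasi-likelihood test on counts, with the spread estimated over all 24 groups, 0 of 10 members were called between the clones at an adjusted p under 0.05 and a change above 2-fold, where 0.335% of the 19980 genes tested were. No member reached an unadjusted p under 0.05, where 10% of all genes did. The log2 difference of B6-2 from B6-1 was -1.15 ± 0.80 (SE) for *Dppa3* (adjusted p = 0.76), 0.44 ± 0.24 for *Sox2* (0.59) and 0.33 ± 0.19 for *Tdgf1* (0.61). Its 95% interval was -2.71 to 0.41 for *Dppa3*, -0.04 to 0.91 for *Sox2* and -0.04 to 0.70 for *Tdgf1*, so that differences of these sizes are not excluded. DESeq2 called 0 members and 0 at an unadjusted p under 0.05, with no adjusted p for *Dppa3*, and limma with a pseudocount of 0.1 called 0. *Dppa3* was called by limma on log2(TPM + 0.5) (adjusted p = 1.4e-08). The limma fit pooled the spread over all 70 libraries, and *Dppa3* had a count in 1 of 9 embryonic and 1 of 57 adult libraries. Its p-value there thus says little of the spread between platings of a clone. *Dppa3* was also called by edgeR on the 4 mESC libraries alone (adjusted p = 0.011). In that fit 2.4% of all genes were called and 31.4% had an unadjusted p under 0.05, as did 8 of 10 members.

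**Figure D2:**
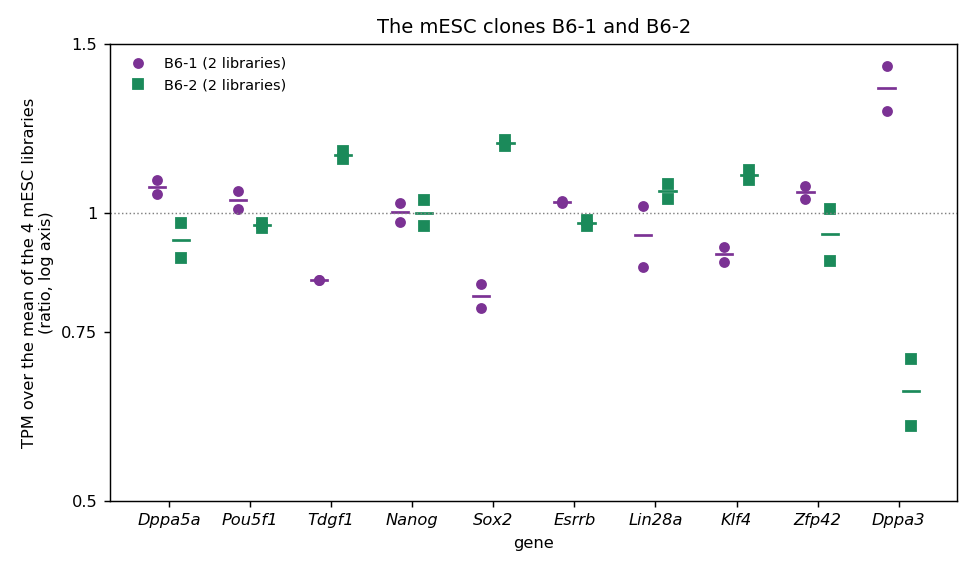
TPM of each gene in each mESC library, divided by the mean over the 4 mESC libraries, on a log axis. Points are libraries and short bars the mean of a clone. *Dppa3* is 2.07-fold higher in B6-1, and *Sox2* and *Tdgf1* are 1.44-fold and 1.35-fold higher in B6-2, none of them called in the main test.

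Genes around the members gave few calls between the clones as well. Of 25 further genes of the pluripotency network, edgeR called 0, with 0 at an unadjusted p under 0.05, and DESeq2 and both limma fits also called 0, with 0, 2 and 0 at an unadjusted p under 0.05. The fit of the mESC libraries alone called 0 of them, with 8 of 25 at an unadjusted p under 0.05, a share near the 31.4% of all genes. Family relatives gave 0 calls of 18 tested in edgeR and DESeq2, with 4 and 5 at an unadjusted p under 0.05, and 1 call in each limma fit (*Esrrg*, 1.08 TPM in B6-1 and 3.27 TPM in B6-2). Genes of the 2-cell-like state, a rare fluctuating state of mESC cultures, stood higher in B6-2. *Zscan4f* was at 17.4 TPM in B6-1 and 82.3 TPM in B6-2, *Zscan4c* at 2.50 and 16.9 TPM, *Zscan4d* at 2.19 and 12.3 TPM, and *Tcstv3* at 0.125 and 2.35 TPM. Of the 6 tested, edgeR called 0 with 5 at an unadjusted p under 0.05 (*Zscan4f* log2 2.00 ± 0.35, adjusted p = 0.084), and DESeq2 called 0 with 0 at that level, whereas limma called 6 with either pseudocount and the mESC fit called 5. These genes were named after their values had been seen, and the Zscan4 copies are near-identical, so that reads may be divided between them. In limma their spread came mostly from brain libraries, where they were at or near 0. Germ cell markers were part of the mESC profile too, where *Ddx4*, *Dazl* and *Mael* summed to 123–223 TPM, against 0.800–1.64 TPM in embryonic brain. *Dazl* was at 99.96 TPM in B6-1 and 174 TPM in B6-2.

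Against brain, every member was higher in mESCs. In edgeR, 10 of 10 members were called higher than in embryonic brain, where 26.8% of all genes were, and 10 of 10 higher than in adult brain, where 31.5% were. *Dppa3* (353 counts in mESCs, 1 in embryonic and 2 in adult brain) passed the filter on low counts only through mESC libraries. So did *Zfp42* (5961, 2 and 18). Such genes could be called in no other direction, so these counts describe the members and do not test them against all genes. The members' median log2 difference was 9.43 against embryonic and 9.996 against adult brain, beside medians of -0.0021 and -0.052 over all genes tested. DESeq2 called 9 of 10 in both, without *Dppa3*. The 25 network genes were all higher in both comparisons, with medians of 8.72 and 9.78, and *Fgf4*, *Dppa4*, *Utf1* and *Tcl1* led them. The same limit holds for those of them at or near 0 in brain, such as *Tcl1*, *Fgf4* and *Dppa4*. *Fgf4*, the growth factor that mESCs secrete, was at 122 TPM in mESCs and 0.00390 TPM in adult brain.

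The size of the difference set the members apart from each other. *Sox2* differed least, by 1.42 ± 0.15 (log2, SE) from embryonic and 3.18 ± 0.09 from adult brain (adjusted p = 1.7e-12 and 3.2e-35). *Klf4* came next, with 4.67 ± 0.22 and 4.72 ± 0.11, and then *Esrrb*, with 6.97 ± 0.30 and 6.65 ± 0.12. *Nanog* was higher by 10 ± 0.27 and 10.53 ± 0.11. The *Esrrb* difference from embryonic brain leaned on F and was 5.82 without it. *Dppa5a* was higher by 11.16 ± 0.30 than in embryonic brain.

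For members at 0 counts in whole regions a fitted difference depends on the prior count, so counts are given instead, with 95% intervals that cover counting error only. *Zfp42* had 5961 estimated counts in 4 mESC libraries, 2 in 9 embryonic and 18 in 57 adult libraries, which made its rate in mESCs 6540 times (1810 to 54000) that in embryonic brain. *Dppa3* had 353, 1 and 2 counts, a rate 775 times (138 to 30700) that in embryonic brain. *Tdgf1* had 51064, 7 and 2158 counts, so it was 16000 times (7770 to 39800) higher than in embryonic brain but 346 times (332 to 362) higher than in adult brain. *Lin28a* showed the reverse, 218 times (185 to 258) over embryonic and 3300 times (2570 to 4290) over adult brain. *Pou5f1*, with 58102, 34 and 145 counts, was 3750 times (2680 to 5420) and 5870 times (4980 to 6950) over them. Most of its brain counts lay in few regions, with 24 of the 34 embryonic counts in M and 118 of the 145 adult counts in CUL4-5.

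Persisting in brain was taken as a mean of at least 1 TPM in at least 1 brain region. By this measure 8 of 10 members persisted, all but *Zfp42* and *Dppa3*, beside 54% of all genes and 94.9% of the genes that reached 1 TPM in both mESC lines. *Sox2* and *Klf4* did so in every brain region, as did 35.4% of all genes. At 5 TPM, 4 members remained, *Sox2*, *Klf4*, *Esrrb* and *Tdgf1*, beside 42.4% of all genes and 94.8% of the genes that reached 5 TPM in both mESC lines. The other 4, *Nanog*, *Lin28a*, *Dppa5a* and *Pou5f1*, reached 1 TPM only in some regions: *Lin28a* in M, *Nanog* in F and CENT2, *Pou5f1* in M and CUL4-5, and *Dppa5a* in F, M, PVH and CUL4-5. Among the 18 adult regions 7 members differed (adjusted p under 0.05), where 80.9% of all genes did, the exceptions being *Klf4*, *Dppa3* and *Lin28a*. Among the embryonic regions 5 differed (*Sox2*, *Klf4*, *Esrrb*, *Lin28a* and *Pou5f1*), where 51.4% of all genes did.

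**Figure D3:**
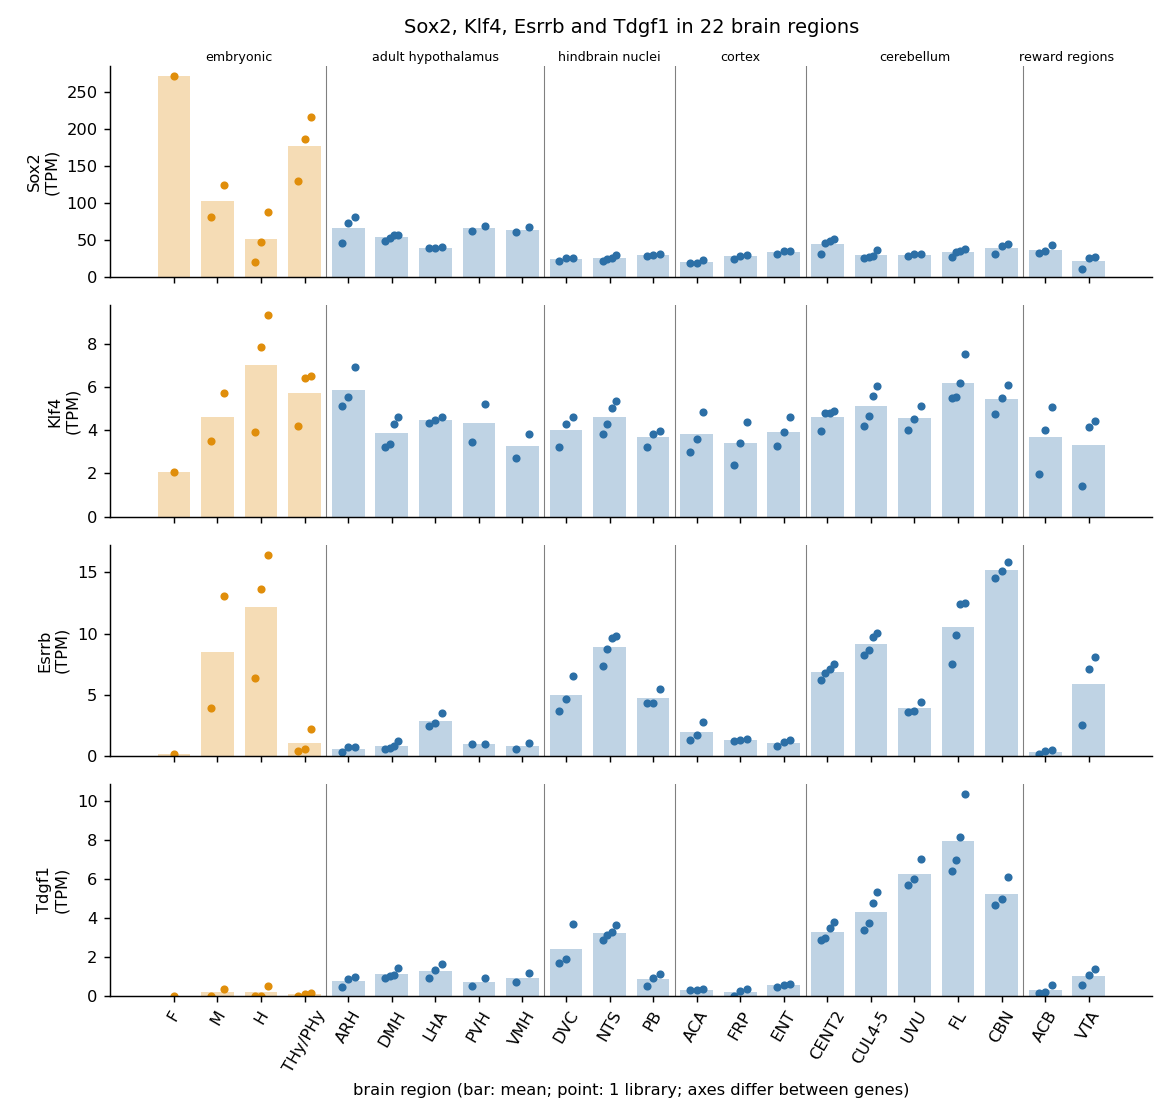
TPM of *Sox2*, *Klf4*, *Esrrb* and *Tdgf1* in 22 brain regions, with a bar for the mean and a point for each library, and with a TPM axis of its own for each gene. *Sox2* is highest in F (272 TPM), the region means of *Klf4* lie between 2.09 and 7.05 TPM, *Esrrb* is highest in CBN (15.2 TPM) and H (12.2 TPM), and *Tdgf1* is highest in FL (7.94 TPM) and near 0 in the embryo.

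*Sox2* was the member with the highest level in brain. F was at 272 TPM in its 1 library. THy/PHy was at 217, 186 and 130 TPM (mean 178 ± 44.4, SD, n = 3), and M at 80.7 and 125 TPM (103 ± 31.2, n = 2). The H libraries were at 19.95, 47.0 and 88.0 TPM (51.7 ± 34.2, n = 3), so H spanned most of the adult range. The 57 adult libraries ran from 11.6 TPM through a median of 31.8 TPM to 81.2 TPM.

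In the order of the regions, F, THy/PHy and M were set apart from each other and from the rest by more than the larger SD, as was VMH from DMH. In adult brain the hypothalamus led: ARH was at 66.8 ± 18.4 TPM (n = 3), PVH at 65.9 ± 4.41 (n = 2), VMH at 63.9 ± 4.86 (n = 2) and DMH at 53.9 ± 3.89 (n = 4). From DMH down to ACA (20.5 ± 2.28, n = 3) no neighbours differed beyond their spread. The hypothalamus was higher than the other adult systems by 0.83 ± 0.08 (log2, adjusted p = 8.1e-14), below the 2-fold limit of a call. LHA, at 40.0 ± 0.38 TPM (n = 3), was the lowest of its regions.

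*Sox2* was 3.95-fold higher in the mean of the embryonic than of the adult regions, and its log2 difference of 1.76 ± 0.08 was called (adjusted p = 6.4e-26). For embryonic against adult brain 5 of 10 members were called, where 37.7% of all genes were. In the matched hypothalamus, THy/PHy against its 5 adult regions, *Sox2* was higher by 1.66 ± 0.14 (adjusted p = 3.7e-15), and 3 of 10 members were called where 38.2% of all genes were. H exceeded the adult hindbrain nuclei by 0.95 ± 0.16 (adjusted p = 5.2e-07), under the 2-fold limit, and 3 of 10 members were called there where 44% of all genes were. Without the third H library the count was 5, with *Klf4* and *Nanog* added, in a fit that tested the members only and so gives no share of all genes.

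The developmental difference of *Sox2* was larger in the hypothalamus than in the hindbrain by 0.71 ± 0.23 (log2, adjusted p = 0.014), a comparison added after the values had been seen. This is under the 2-fold limit, so 0 of 10 members were called, where 9.84% of all genes were. DESeq2 gave 0.70 (adjusted p = 0.0096). *Sox2* missed an adjusted p of 0.05 without the first H library (0.42) or the first THy/PHy library (0.62). Within H and within THy/PHy, *Sox2* ran in the order of 8 neural progenitor markers, *Sox1* and *Sox3* among them. These summed to 506, 958 and 1828 TPM in H and to 1621, 1057 and 806 TPM in THy/PHy. Across regions the order was not kept throughout. F was highest in both (2244 TPM of markers, 272 TPM of *Sox2*). M had 1467 and 1711 TPM of markers with 80.7 and 125 TPM of *Sox2*, against a *Sox2* mean of 178 TPM in THy/PHy. Choroid plexus markers also varied, at 575, 1039 and 1913 TPM in H and at 2.94–6.10 TPM in THy/PHy. The part of either in the *Sox2* difference was not tested.

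Relatives of *Sox2* in the SOX family were low in mESCs and higher in embryonic brain. *Sox1*, a SOXB1 factor of neural progenitors, was at 2.09 TPM in mESCs, 46.6 TPM in embryonic and 9.79 TPM in adult brain. *Sox3*, of the same subgroup, was at 1.31, 40.2 and 1.84 TPM, and *Sox11*, a factor of young neurons, at 7.66, 375 and 5.81 TPM. *Sox9*, a factor of glia, was at 0.0601, 57.9 and 21 TPM. All 4 rose from mESCs to embryonic brain and were higher there than in adult brain, by 1.82 (*Sox1*), 4.07 (*Sox3*), 6.40 (*Sox11*) and 1.45 (*Sox9*) on the log2 scale (adjusted p at most 1.4e-17). Over the 22 brain regions the profile most like that of *Sox2* was that of *Sox3* (Pearson's r of log2(TPM + 1) 0.949, Spearman's rho 0.913), followed by *Prdm12* (0.942) and *Sox1* (0.939). Over the 18 adult regions alone it was *Atraid* (0.909), *Spint2* (0.894) and *Map10* (0.893). These correlations describe region means that share libraries and depth, out of 15767 genes compared over brain and 15503 over the adult regions.

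*Klf4* was present at a low level in all of the brain. Its region means ran from 2.09 TPM in F and 3.27 ± 0.77 TPM in VMH (n = 2) to 6.20 ± 0.95 in FL (n = 4) and 7.05 ± 2.79 in H (n = 3), and only F, with its 1 library, lay apart from its neighbour by more than the spread. The adult libraries ran from 1.44 to 7.54 TPM with a median of 4.42 TPM. Embryonic and adult brain gave 4.87 and 4.35 TPM, with a log2 difference of 0.04 ± 0.13 (adjusted p = 0.84, interval -0.22 to 0.31). H exceeded the adult hindbrain nuclei by 0.95 ± 0.21 (adjusted p = 9.1e-05), again under 2-fold.

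In the adult regions *Klf4* was most like *Foxc1* (r = 0.921), *Pcolce* (0.907) and *Icam1* (0.897), the first a factor of mesenchyme and mural cells, the second an enhancer of collagen processing and the third an adhesion molecule of endothelium. Markers of endothelial and mural cells summed in the adult regions to means from 177 TPM in VMH to 338 TPM in CBN, with 317 TPM in FL, and to 154 TPM in F and 256 TPM in H. They did not run with *Klf4* throughout, since ARH, with the second highest adult mean of *Klf4* (5.86 TPM), had 207 TPM of them, and NTS, with 4.63 TPM of *Klf4*, had 301 TPM. Their part in the level of *Klf4* was not tested. Other Krüppel-like factors went different ways. *Klf2* (72.6 TPM in mESCs, 5.54 in embryonic and 7.76 in adult brain) and *Klf5* (110, 4.69 and 4.50 TPM) shared its high level in mESCs. *Klf6* and *Klf7* were lower in mESCs (7.93 and 1.09 TPM) than in adult brain (23.2 and 20.4 TPM). *Klf9*, a target of thyroid hormone, was at 64.9 TPM in mESCs, 1.84 TPM in embryonic and 74.9 TPM in adult brain, a fall of the embryo below the adult by 5.35 on the log2 scale (-5.35 ± 0.16, adjusted p = 9.6e-35). *Klf13* was lower in the embryo than in the adult as well (-1.79 ± 0.08, 20.8 and 68.9 TPM).

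*Esrrb* varied widely between regions. It was highest in CBN, at 14.6 to 15.8 TPM (15.2 ± 0.64, n = 3), then in H at 6.41, 13.7 and 16.4 TPM, in FL at 10.6 ± 2.35 TPM (n = 4), CUL4-5 at 9.17 ± 0.83 (n = 4) and NTS at 8.87 ± 1.11 (n = 4). It was lowest in F (0.189 TPM) and in ACB, at 0.362 ± 0.15 TPM (n = 3). The steps from PB (4.75 ± 0.67, n = 3) to UVU (3.91 ± 0.43, n = 3), from UVU to LHA (2.87 ± 0.55, n = 3) and from LHA to ACA (1.94 ± 0.73, n = 3) each exceeded the larger SD, as did that from ACB to F, and no other neighbours differed beyond it. LHA held 2.44 to 3.49 TPM while the other 4 hypothalamic regions had means under 1 TPM, from 0.607 to 0.974.

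It was called in all 6 comparisons of an adult system with the others. *Esrrb* was higher in cerebellum by 2.20 ± 0.12 (log2, adjusted p = 9.8e-23), in hindbrain nuclei by 1.45 ± 0.14 (6.6e-13) and in VTA by 1.60 ± 0.21 (1.2e-08). It was lower in hypothalamus by 2 on the log2 scale (-2 ± 0.17, adjusted p = 1.0e-14), in cortex (-1.021 ± 0.18, 2.8e-06) and in ACB (-3.50 ± 0.42, 5.7e-10). The call in cortex lay at the limit and was lost without ARH replicate 2 (-0.99), VMH replicate 1 (-0.99), ACA replicate 3 (-0.97), FRP replicate 3 (-0.99) or ENT replicate 1 (-0.97). In VTA, where the libraries were at 2.57 to 8.08 TPM, limma gave 0.82 and 1.00 and no call, and edgeR gave 1.82 without the first VTA library.

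Over all members, 2 of 10 were called in cerebellum (15.9% of all genes), cortex (16.1%), hypothalamus (8.84%), hindbrain nuclei (7.84%) and ACB (12.8%), and 1 of 10 in VTA (10.5%). *Esrrb* was called in each, joined by *Tdgf1* in cerebellum, cortex and ACB, by *Dppa5a* in hypothalamus and by *Lin28a* in hindbrain nuclei. These comparisons share regions, so they are not independent of each other.

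In the embryo *Esrrb* did not differ from the adult overall (log2 -0.33 ± 0.24, adjusted p = 0.23, interval -0.80 to 0.15), but the embryonic regions differed among themselves. M was at 3.91 and 13.0 TPM, THy/PHy at 0.457, 0.552 and 2.21 TPM, and F at 0.189 TPM. H was higher than the adult hindbrain nuclei by 1.098 ± 0.23 (adjusted p = 4.1e-05), which fell under 2-fold without the second H library (0.96) and in limma (0.89 and 0.94). THy/PHy and the adult hypothalamus differed by 0.20 ± 0.34 (adjusted p = 0.62).

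The relatives of *Esrrb* are orphan receptors of oxidative metabolism, and both were called higher in adult brain than in mESCs. In counts the log2 difference was 1.35 for *Esrra* and 6.55 for *Esrrg*, the latter larger than the ratio of its TPM levels, which allow for transcript length. *Esrrg* was at 2.17 TPM in mESCs, 19.9 TPM in embryonic and 27.1 TPM in adult brain, where CBN was highest (82.0 TPM) and ARH lowest (3.99 TPM). *Esrra* was at 17.02, 20.6 and 57.3 TPM, and its levels in mESCs and embryonic brain differed by 0.10 ± 0.21 (adjusted p = 0.71). *Esrrg* was called in the same direction as *Esrrb* in all 6 adult comparisons, by 1.36 in cerebellum, 1.00 in hindbrain nuclei, 1.76 in VTA, -1.13 in hypothalamus, -1.41 in cortex and -1.55 in ACB (log2). It was also the gene most like *Esrrb* over the 22 brain regions (r = 0.865, rho = 0.817). Over the adult regions *Kcng4*, a potassium channel subunit, came first (r = 0.945, from 0.344 TPM in ACB to 142 TPM in CENT2), followed by *S100b* (0.943) and *Tmem230* (0.940).

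Within brain, *Tdgf1* was found mainly in the adult. In FL it was at 6.36 to 10.3 TPM (7.94 ± 1.75, n = 4), in UVU at 6.21 ± 0.69 TPM (n = 3), in CBN at 5.22 ± 0.76 (n = 3), in CUL4-5 at 4.30 ± 0.90 (n = 4), in CENT2 at 3.27 ± 0.43 (n = 4) and in NTS at 3.204 ± 0.31 (n = 4). The adult regions ended with ACA at 0.311 ± 0.009 TPM (n = 3), ACB at 0.275 ± 0.23 (n = 3) and FRP at 0.185 ± 0.17 (n = 3). The means of all 5 cerebellar regions were above every other region, though that of CENT2 was above NTS by less than their spread. From UVU to CBN, CBN to CUL4-5 and CUL4-5 to CENT2 the steps exceeded the larger SD, as did those from DVC to LHA and ENT to ACA lower in the order and from THy/PHy to F in the embryo.

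The embryonic libraries held 7 estimated counts of *Tdgf1* in all, and the highest was at 0.479 TPM. Adult brain had 2158 counts, and the embryonic rate was 0.0216 times (0.00869 to 0.0447) the adult rate. *Tdgf1* was called lower in embryonic than in adult brain (log2 -4.97 ± 0.35, adjusted p = 2.1e-18), in THy/PHy than in the adult hypothalamus (-3.46 ± 0.54) and in H than in the adult hindbrain nuclei (-5.09 ± 0.52). With so few embryonic counts the size was loose, at -7.85 without the third H library and, over all regions, between -5.71 without the first M library and -4.20 without F. *Cfc1*, the other EGF-CFC co-receptor, stayed at 0.0664 TPM in adult brain, and *Nodal*, the ligand, was at 58.0, 0.0603 and 0.592 TPM in mESCs, embryonic and adult brain.

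In adult systems *Tdgf1* was higher in cerebellum by 2.93 ± 0.10 (log2, adjusted p = 5.9e-32) and lower in cortex (-2.83 ± 0.22, 1.4e-16) and ACB (-2.75 ± 0.37, 1.5e-08). Over the 18 adult regions 43 genes had an r above 0.9 with it, led by *Tmem229b* (0.959), *Hsd11b1* (0.936) and *Aqp4* (0.931), the last the water channel of astrocytes. Markers of astrocytes and Bergmann glia summed over 9 genes to means of 1525–1784 TPM in CENT2, CUL4-5, UVU and FL and 1117 TPM in CBN, against 672 TPM in VTA to 1015 TPM in ENT in the other adult regions. They did not run with *Tdgf1* outside the cerebellum: NTS and DVC had 899 and 937 TPM of these markers with 3.204 and 2.39 TPM of *Tdgf1*, and FRP and ACB had 983 and 977 TPM with 0.185 and 0.275 TPM. Their part in the pattern of *Tdgf1* was not tested.

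*Lin28a* was low in brain and higher in the embryo than in the adult. M was at 1.88 and 2.05 TPM (37 and 25 counts), F at 0.575 TPM (26 counts), THy/PHy at 0.361, 0.232 and 0.284 TPM (11, 8 and 10 counts) and H at 0.126, 0.418 and 0.243 TPM (3, 15 and 8 counts). M was thus higher than the other regions by more than the spread. Adult brain had 63 counts in 57 libraries, with a highest library at 0.801 TPM. By rate, the embryo exceeded the adult 15.1 times (11.2 to 20.7).

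Embryonic against adult brain gave a log2 difference of 4.11 ± 0.30 for *Lin28a* (adjusted p = 6.1e-17), with 3 adult regions at 0 counts, and limma gave 1.03 and 2.26, also called. THy/PHy was higher than the adult hypothalamus by 3.66 ± 0.61 (adjusted p = 9.8e-07) and H higher than the adult hindbrain nuclei by 2.18 ± 0.54 (0.0004). Both fell under 2-fold in limma with a pseudocount of 0.5 (0.54 and 0.43). Its call in adult hindbrain nuclei (1.61 ± 0.49, adjusted p = 0.0047) rested on at most 4 counts per library, and limma gave 0.04 and 0.20.

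Genes of the LIN28 and let-7 axis were mostly higher in the embryo as well. Of 10 tested, 8 were higher in embryonic than in adult brain, where 17.8% of all genes were, and 8 higher in mESCs than in adult brain (31.5% of all genes), with 2 higher in mESCs than in embryonic brain (26.8%). *Igf2bp1*, an mRNA-binding protein and let-7 target, had the largest embryonic excess of the list and was at 285 TPM in mESCs, 24.5 TPM in embryonic and 0.175 TPM in adult brain (embryo over adult log2 9.84 ± 0.10). *Hmga2*, a chromatin protein with many let-7 sites, was at 20.1, 21.6 and 0.139 TPM (7.12 ± 0.14), and *Igf2bp2* at 61.7, 54.8 and 0.589 TPM (6.85 ± 0.13). *Trim71*, an RNA-binding protein of early development, was at 83.7 TPM in mESCs but 0.366 TPM in embryonic brain. *Lin28b*, the paralog, was at 5.05 TPM in mESCs, 8.15 TPM in embryonic and 2.35 TPM in adult brain, and it was higher in the embryo by 1.81 ± 0.08 (adjusted p = 3.1e-27). In the brain regions *Lin28a* was most like *Helt* (r = 0.899, rho = 0.396), a factor of the embryonic midbrain, with *Fgfbp3* (0.872) and *Pdzk1ip1* (0.866) next, and all 3 peaked in M.

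**Figure D4:**
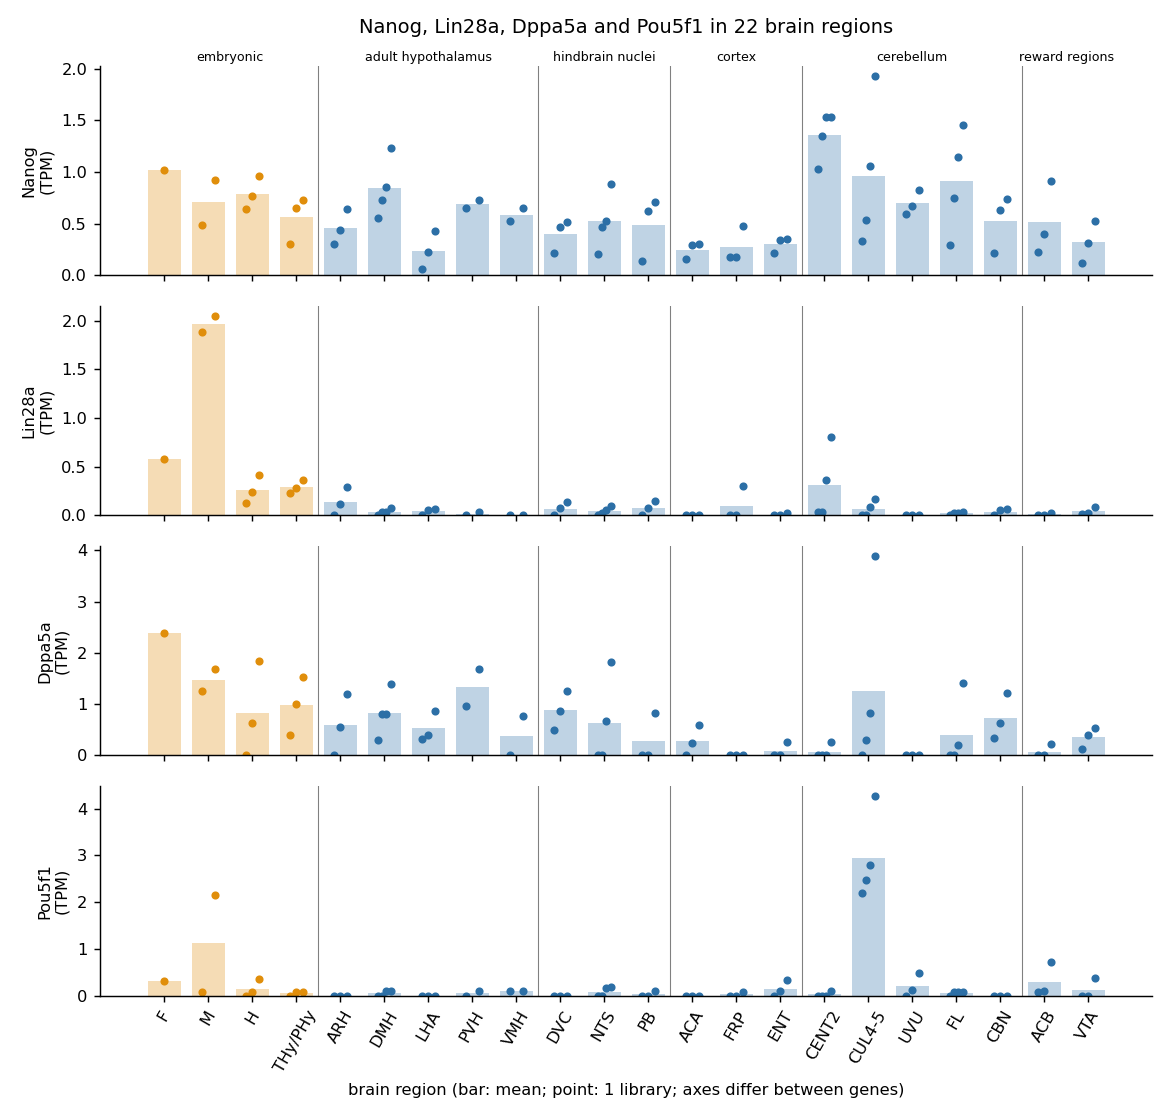
TPM of *Nanog*, *Lin28a*, *Dppa5a* and *Pou5f1* in 22 brain regions, with a bar for the mean and a point for each library, and with a TPM axis of its own for each gene. *Lin28a* is highest in M (1.97 TPM), *Dppa5a* in F (2.39 TPM, 1 library) and *Nanog* in CENT2 (1.36 TPM), and *Pou5f1* stands out in all 4 libraries of CUL4-5 (2.19–4.27 TPM).

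*Nanog* lay between 0.239 and 1.36 TPM in the region means of brain, with at least 1 estimated count in all 66 brain libraries. CENT2 was highest at 1.36 ± 0.23 TPM (n = 4), set apart from F (1.019 TPM), and CUL4-5 (0.963 ± 0.72, n = 4), FL (0.908 ± 0.50, n = 4) and DMH (0.841 ± 0.29, n = 4) followed without differing beyond their spread. LHA was lowest at 0.239 TPM. *Nanog* was higher in cerebellum by 0.92 ± 0.19 (log2, adjusted p = 4.4e-05) and lower in cortex (-0.95 ± 0.30, 0.0056), both under 2-fold. Embryonic and adult brain were at 0.770 and 0.575 TPM (0.53 ± 0.23, adjusted p = 0.038). Over the adult regions *Nanog* was most like *Rrp8* (r = 0.876), *Cecr2* (0.865) and *Apip* (0.864), all 3 of them highest in CUL4-5.

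The *Nanog* transcripts behind these levels were not the same. In mESCs *Nanog-201* carried 78.2% of the TPM (74.4–82.0% over the 4 libraries) and *Nanog-203*, which starts 79 bases upstream, 21.8%. In embryonic brain *Nanog-203* carried 92.4% and in adult brain 87.5%. *Nanog-201* was at 0 in 8 of 9 embryonic and 47 of 57 adult libraries. Shares from a few counts per library are loose, and all 3 *Nanog* transcripts share 235 of their 31-base words with other genes. The promoter window printed for *Nanog* is that of *Nanog-203*.

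*Esrrb* showed a smaller difference of this kind. *Esrrb-203* carried 93.2% of its TPM in mESCs, 94.9% in embryonic and 86.6% in adult brain. *Esrrb-204*, from the upstream start, carried 0.762% in mESCs, 1.01% in embryonic brain and 10.3% in adult brain, from 0 in LHA, PB, ACA, FRP and ACB to 48.4% in ARH. In the cerebellum it was 20.7% in CENT2, 18.9% in CUL4-5, 12.5% in CBN, 10% in FL and 5.73% in UVU, at a level of 1.06 to 1.89 TPM apart from UVU. The shares of 48.4% in ARH, 25.7% in ENT, 25.6% in DMH, 24.8% in VMH and 19.5% in PVH stood for levels of 0.190 to 0.293 TPM. It was at 0 in 8 of 9 embryonic and 32 of 57 adult libraries. By counts in place of TPM, the share in cerebellum was 14.1% against 13.9%. No test was made of transcripts.

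**Figure D5:**
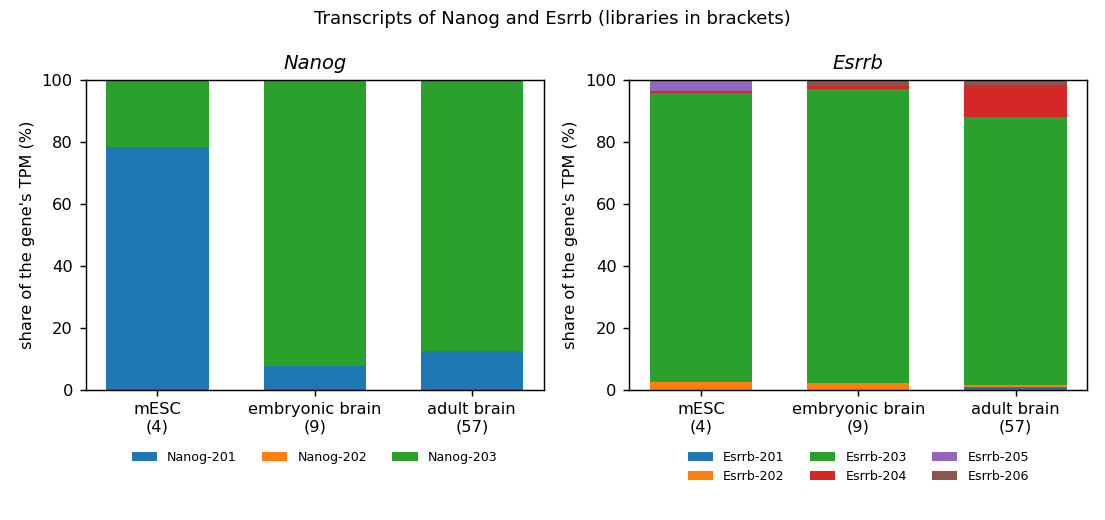
Share of the TPM of *Nanog* and *Esrrb* on each annotated transcript, as the mean level over groups, in mESC, embryonic brain and adult brain. *Nanog-201* makes 78.2% of *Nanog* in mESC and 7.61% and 12.5% in brain, and *Esrrb-204* makes 10.3% of *Esrrb* in adult brain against 0.762% in mESC.

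*Dppa5a* had 51 counts in embryonic and 116 in adult brain. F was at 2.39 TPM, M at 1.68 and 1.25 TPM, PVH at 1.69 and 0.973 TPM, and the libraries of CUL4-5 at 0.828, 0, 3.89 and 0.296 TPM. Most adult libraries were under 1 TPM, with a median of 0.272 TPM and 23 of 57 without a count. The embryonic rate was 2.93 times (2.07 to 4.11) the adult rate, and the fitted log2 difference of 2.00 ± 0.44 was called (adjusted p = 5.9e-05), with 2 adult regions at 0 counts. In hypothalamus it was called higher than elsewhere (1.47 ± 0.53, adjusted p = 0.017), which was lost without ARH replicate 2 (1.20) or VMH replicate 2 (0.72) and in limma with a pseudocount of 0.5 (0.56). Of its 31-base words 57.2% occur in other genes, and the part of those genes was not tested.

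*Pou5f1* was at or near 0 in most of the brain, with 25 of 57 adult libraries and 7 of 9 embryonic libraries holding any count. CUL4-5 was the exception in the adult, at 4.27, 2.19, 2.80 and 2.47 TPM (2.94 ± 0.93, n = 4; 41, 18, 30 and 29 counts). The next adult region, ACB, was at 0.301 TPM and the median of the others at 0.0474 TPM. In the embryo M was at 0.0855 and 2.14 TPM (1 and 23 counts), so that the 2 libraries of M disagreed. The call of *Pou5f1* higher in embryonic than in adult brain (log2 2.10 ± 0.59, adjusted p = 0.0015) had 5 adult regions at 0 counts. Without M replicate 2 it was 1.25, limma gave 0.32 and 0.82 without a call, and the rate by counts was 1.56 times (1.04 to 2.29) the adult rate.

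Other mESC genes in CUL4-5 were looked at beside it. The region was singled out for *Pou5f1*. Of the other 9 members, 1 (*Zfp42*, with 11 counts) was above every other adult region there, as were 7 of the 25 network genes and 9.67% of all genes. *Rif1* (62.9 TPM), *Tet1* (9.22 TPM) and *Zfp296* (4.48 TPM) were those above 1 TPM, and CENT2 or UVU came next for them. For every 100 counts of *Pou5f1*, CUL4-5 had 52.6 of *Nanog* (95% interval 40.3 to 67.5), 17 of *Dppa5a* (10.4 to 26.2), 9.33 of *Zfp42* (4.66 to 16.7) and 5.94 of *Lin28a* (2.39 to 12.2). In B6-1 these were 90, 89.6, 10.4 and 22.8, and in B6-2 they were 95.7, 83.6, 10 and 26.3. The interval of *Zfp42* in CUL4-5 thus included the mESC ratios, while those of *Nanog*, *Dppa5a* and *Lin28a* lay under them. *Tdgf1* was above them, at 203 (178 to 230) against 74.1 in B6-1 and 105 in B6-2, and *Dppa3* was at 0 (0 to 3.13) against 0.783 and 0.39. The intervals take the *Pou5f1* counts as fixed. Levels of other regions, such as *Tdgf1* in FL (7.94 TPM) and *Nanog* in CENT2 (1.36 TPM), were not subtracted. The third CUL4-5 library was highest for *Nanog* (1.93 TPM), *Dppa5a* (3.89 TPM) and *Zfp42* (0.425 TPM), and the first for *Pou5f1* (4.27 TPM). The source of these counts was not tested.

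The POU3 factors, relatives of *Pou5f1*, were higher in brain than in mESCs. *Pou3f2* (BRN2) was at 0.107 TPM in mESCs, 44.4 TPM in embryonic and 9.52 TPM in adult brain, *Pou3f3* at 0.160, 69.5 and 19.5 TPM, and *Pou3f4* at 0.00736, 31.1 and 5.99 TPM, and all 3 were called higher in the embryo than in the adult (log2 2.21, 1.62 and 2.73). *Pou2f1* (OCT1), which is made in most cells, was at 27.0, 19.97 and 12.03 TPM. The relatives as a list, 18 tested, had 4 members higher and 10 lower in mESCs than in embryonic brain (median log2 -2.45), where 26.8% of all genes were higher and 29% lower. Against adult brain 5 were higher and 10 lower (-1.23), beside 31.5% and 32.3% of all genes. Between embryonic and adult brain 10 were higher and 3 lower (1.01), beside 17.8% and 19.9% of all genes.

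*Zfp42* and *Dppa3* were at or near 0 throughout brain. *Zfp42* had counts in 10 of 57 adult and 2 of 9 embryonic libraries, with 10 adult regions without any and a highest library of 0.425 TPM in CUL4-5. *Dppa3* had 2 counts in the adult, both in 1 ARH library, and 1 count in H. As CPM, counts scaled to library totals, their adult rates were 0.0184 (95% interval 0.0109 to 0.0291) and 0.00205 (0.000248 to 0.00740). *Yy1*, the factor related to *Zfp42*, was by contrast at 80.9 TPM in mESCs, 72.9 TPM in embryonic and 32.7 TPM in adult brain.

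Between embryonic and adult brain the members as a whole showed no shared direction. Of the 5 called, *Sox2*, *Lin28a*, *Dppa5a* and *Pou5f1* were higher in the embryo and *Tdgf1* lower, and the median over the 10 was 0.44 beside 0 over all genes tested. The 25 network genes had 8 higher and 1 lower (median 0.37), where 17.8% of all genes were higher and 19.9% lower. *Mybl2*, a cell cycle factor, was at 23.96 TPM in embryonic and 1.31 TPM in adult brain (log2 4.14 ± 0.11), and *Nr5a2* at 1.35 and 0.444 TPM (3.49 ± 0.22). The brain region with the highest *Nr5a2* was nonetheless adult ARH (5.53 TPM), above M (3.37 TPM), the highest embryonic region.

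Genes of the signals that mESC culture manipulates were split. Of 19 tested, 8 were higher and 5 lower in mESCs than in embryonic brain, and 6 were higher and 6 lower than in adult brain, with medians of 0.17 and -0.03. These counts stood beside 26.8% of all genes higher and 29% lower in the first comparison and 31.5% and 32.3% in the second. The ligand *Nodal*, for which TDGF1 is the co-receptor, and its secreted inhibitors led the genes that were higher. *Nodal* exceeded embryonic brain by 10.35 ± 0.35 (log2, SE) and adult brain by 7.07 ± 0.12. *Lefty2*, a secreted inhibitor of NODAL, was at 10.7, 0.118 and 0.299 TPM in mESCs, embryonic and adult brain (7.26 and 7.51 higher in mESCs), and *Lefty1*, another, at 8.39, 0.123 and 1.15 TPM (6.73 and 3.94). *Nodal* and *Lefty1* were both lower in embryonic than in adult brain (-3.28 ± 0.31 and -2.79 ± 0.42), as *Tdgf1* was. Other genes of the branch were not higher in mESCs: the receptor *Acvr1b* (15.3 TPM in mESCs, 44.5 TPM in embryonic brain) and the effector *Smad3* (6.46 and 30.3 TPM) were lower in mESCs than in embryonic brain, and *Smad2* (37.2 and 55.6 TPM) was not called. These genes were named after their values had been seen. *Socs3*, the feedback inhibitor of LIF signals, was higher in mESCs (61.3 TPM) than in adult brain (2.16 TPM) by 5.64 ± 0.11. *Map2k1* (MEK1), a target of the MEK inhibitor, was at 102, 29.4 and 200 TPM, and lower in embryonic than in adult brain (-2.77 ± 0.08). Between the clones edgeR called 0 of the 19, with 2 at an unadjusted p under 0.05, and DESeq2 and both limma fits called 0, while the fit of the mESC libraries alone called 1 (*Lefty2*).

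Genes of the steps that follow naive pluripotency differed among themselves. Of 10 tested, 3 were higher and 3 lower than in embryonic brain, near the shares of all genes (26.8% and 29%), and 6 were higher and 2 lower than in adult brain (31.5% and 32.3% of all genes). *Dnmt3b*, a DNA methyltransferase, was at 70.3 TPM in mESCs, 3.59 TPM in embryonic and 0.560 TPM in adult brain (log2 4.85 ± 0.16 and 7.68 ± 0.08 higher in mESCs). *Gsc*, a mesendoderm factor, was at 2.31 TPM in mESCs (3.75 ± 0.77 and 6.48 ± 0.47 higher), and *Mixl1*, another, at 0.323 TPM. *Pou3f1* (OCT6) was lower in mESCs than in embryonic brain (-3.64 ± 0.33), at 0.957 TPM against 17.5 TPM. Against adult brain 7 of the 10 were higher in the embryo and 1 lower (17.8% and 19.9% of all genes), led by *Otx2*, a factor of forebrain and midbrain (4.57 ± 0.30; 63.9 TPM against 8.02 TPM), *T* (3.77 ± 0.34; 0.837 TPM against 0.0896 TPM) and *Eomes*, a factor of cortical progenitors as well as of mesendoderm (3.52 ± 0.23; 9.77 TPM against 5.64 TPM). The brain region with the highest *Eomes* was nonetheless adult UVU (39.5 TPM), above F (30.2 TPM), the highest embryonic region. A log2 difference averages log levels over regions, unlike the mean TPM. No gene of this list was called between the clones by edgeR, with 1 at an unadjusted p under 0.05, nor by DESeq2 or limma, and the mESC libraries alone gave 1 call (*Gsc*).

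Of 8 extraembryonic markers tested, 2 were higher and 2 lower in mESCs than in embryonic brain, near the shares of all genes (26.8% and 29%), and 6 were higher and 2 lower than in adult brain (31.5% and 32.3% of all genes). *Tfap2c*, a factor of trophectoderm and of primordial germ cells, was at 49.9 TPM in mESCs, 4.78 TPM in embryonic and 0.156 TPM in adult brain, and it exceeded them by 6.02 ± 0.52 and 10.44 ± 0.29. *Gata4*, a primitive endoderm factor, was at 1.04 TPM in mESCs, 0.101 TPM in embryonic and 0.0590 TPM in adult brain. *Pdgfra*, a receptor of primitive endoderm and of oligodendrocyte precursors, was lower in mESCs than in embryonic brain (-4.25 ± 0.27), and *Krt8*, a keratin of trophectoderm, was higher than in adult brain (5.06 ± 0.52). The 2-cell-like genes were higher in mESCs than in embryonic and in adult brain for 6 of 6 tested, with medians of 8.58 and 8.47. They were at or near 0 in brain and passed the filter on low counts through mESC libraries, so no other direction was open to them.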

How the data were processed

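Libraries were grouped by the region or clone in their labels. The submitters' processing notes name CASAVA 1.8.2, kallisto and GRCm38. The deposited estimated counts per transcript, which the authors made with Kallisto from single reads of strand-specific mRNA libraries, are not normalized between libraries. The deposited TPM values were scaled within each library and summed per gene by the authors. Of 109282 transcripts, 107987 were matched to genes with the GENCODE annotation of GRCm38, and 0.42–0.77% of a library's counts were on unmatched transcripts. Sums over the transcripts of a gene were then rounded to whole numbers.

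Counts were tested in edgeR 4.0.16 (R 4.3.3; TMM, filterByExpr, a dispersion trend over all genes, quasi-likelihood test) with 1 coefficient for each of 24 groups. Means of regions were contrasted with equal weights, and p-values were adjusted by Benjamini-Hochberg over 19980 genes. Genes were called at an adjusted p under 0.05 with a change of more than 1 log2 unit, or by the adjusted p alone where more than 2 groups were compared. An SE of a log2 difference was not fitted but derived, as the absolute difference divided by the square root of the test's F statistic. Its 95% interval is a normal one built on that SE. Both are approximate, can disagree with the p-value near its limit and are unreliable for members with few counts. On simulated data for the clone comparison, with 4000 genes, 76 of 100 genes changed by 1.5 (log2) and 90 of 100 changed by 3 were called. So were 4 unchanged genes. Every simulated gene had the same dispersion, and the same mean in all brain regions. The shares recovered thus do not hold for members with a wide spread, such as *Dppa3* (SE 0.80 between the clones). Alternatives were DESeq2 1.42.0, limma 3.58.1 on log2(TPM + 0.5) or log2(TPM + 0.1), no filter, a replicate block, subsets of libraries, and each library left out with the dispersion trend and p limit of the full fit. Levels and counts used Python 3.11.15 with pandas 2.3.3 and SciPy 1.17.1. Intervals of single rates and of counts per 100 counts of *Pou5f1* are exact 95% Poisson intervals. Those of rate ratios between stages come from exact 95% binomial intervals of 1 stage's share of the summed counts. A mean of at least 1 TPM counted as detection.

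Neighbouring regions in an order were called different where the gap of their means exceeded the larger SD. Likeness was Pearson's r of log2(TPM + 1) over region means. The members and lists were chosen with earlier results of these data known. All members, all family relatives of those that persist in brain, the 3 most alike genes, and up to 3 called genes per list with the largest fold change were named, and others are said to be chosen after their values. No libraries of a group were identical, and each pair differed by more than counting noise. Promoters came from RefSeq (GRCm38.p6). Shared sequence was counted as 31-base words on the GENCODE transcripts. A gene that the rule for named genes covers is not reported here.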

Additional observations from a re-analysis of the deposited data

Results flagged for a closer look

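In 29 sets of 4 libraries (a member at 1 TPM or with counts, in a region with 4 libraries), 2 had a library far from the other 3, where chance sets apart about 1 in 20. *Klf4* in the fourth CENT2 library was at 3.97 TPM against 4.80–4.88 TPM in the others. *Dppa5a* in the second FL library was at 1.4 TPM against 0–0.208 TPM, which is 6 counts against 0 or 1. A difference between groups was found for *Sox2*, whose change from embryo to adult was larger in hypothalamus than in hindbrain by 0.71 on the log2 scale (adjusted p = 0.014 in edgeR). The libraries of H, at 19.95, 47.0 and 88.0 TPM, overlapped the adult range, and without the first of them the difference was 0.42.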

How the results depend on the processing

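Against mESCs the directions of the members held in the alternatives run and 10 of 10 were called, except in DESeq2, which did not call *Dppa3* (log2 8.86 against embryonic and 8.84 against adult brain). The count between clones was 0 in edgeR and 1 in limma with a pseudocount of 0.5 (244 of 20577 genes called) or in the mESC libraries alone (2.4% of all genes). With a pseudocount of 0.5 limma called 1 member (edgeR 3) for embryonic against adult hindbrain, 1 (2) in hypothalamus, 1 (2) in hindbrain nuclei, 0 (1) in VTA and 1 (0) for the developmental difference between hypothalamus and hindbrain, and with 0.1 it called 1 in hindbrain nuclei and 0 in VTA. Of all 20577 genes, limma with 0.5 called 7526, 1062, 886, 2246 and 1709 in these comparisons, in that order. With 0.1 it called 1395 in hindbrain nuclei and 3163 in VTA. By adjusted p alone the counts became 5 for embryonic against adult hindbrain, 4 in hypothalamus, hindbrain nuclei and cortex, 5 in cerebellum and 1 for the developmental difference. The share of all genes by adjusted p alone is not given. At an unadjusted p under 0.05 in edgeR, 14470, 11021, 10979, 12272, 13316 and 8076 of 19980 genes stood in these comparisons, in that order. Leaving out 1 library gave 3 to 5 members for embryonic against adult hindbrain (5 without H replicate 3), 1 to 3 in hypothalamus (1 without ARH replicate 2 or VMH replicate 2), 1 to 3 in cortex and 0 to 1 for the developmental difference, and the clone difference of *Lin28a* (log2 0.04) ran from -0.0737 without B6-1 replicate 2 to 0.17 without B6-1 replicate 1. Fits with a library left out tested the members only, so no share of all genes stands beside their counts. At 5 TPM, 4 members persisted in brain in place of 8, beside 42.4% of all genes in place of 54%. A replicate block left the members called at 0 between clones, 10 and 10 against brain and 5 for embryonic against adult brain, and it changed no call count. Libraries of 1 number were not paired. Their deviations had a median correlation of 0.016, against -0.0049 for libraries of other numbers, with 17.5% and 11.2% of pairs above 0.1. The labels do not say that a number marks the same animals. Neither these correlations nor the block can therefore show whether regions shared animals, and such sharing was not modelled. Depth limits the members under 1 TPM, F rests on 1 library, and in limma the pseudocount shrinks differences of low genes.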
